A study of Mus musculus with 12 samples.

Results

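The genes of the tumor necrosis factor (TNF) superfamily, their receptors, the adaptors and kinases below them and the subunits of NF-κB were examined in GFRa1+/KIT- spermatogonia. The members were the rows of the gene table whose symbol begins with *Tnfrsf* or *Tnfsf* or is *Traf1* to *Traf6*, together with *Tnf*, *Lta*, *Ltb*, *Ltbr*, *Fas*, *Fasl*, *Cd40*, *Cd40lg*, *Cd27*, *Cd70*, *Tradd*, *Fadd*, *Ripk1*, *Ripk3* and the NF-κB genes *Nfkb1*, *Nfkb2*, *Rel*, *Rela* and *Relb*. This gave 57 of the 21859 genes of the table. RNA was sequenced by Smart-seq2, a full-length cDNA method for few cells, in 12 libraries of the cells that carry EGFP under *Gfra1* and lack KIT at the surface. The 5 control libraries came from the scrotal testis, whose genotype is given as WT, and the 7 cryptorchid libraries from the testis that had been surgically moved to the abdomen, 10 days after the operation. All mice were young adult males of the GFRa1-EGFP line, so the control cells carry the reporter too, and the control testis belonged to operated mice. Which libraries come from the same mouse is not stated, so *P*-values measure the spread between libraries. Control testes were digested at a lower temperature than cryptorchid testes, and this difference in handling cannot be told apart from the condition.

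Ligands of the TNF superfamily are membrane-bound or shed trimers that cluster their receptors. Receptors with a death domain recruit TRADD or FADD and can lead to caspase activation or, through the kinases RIPK1, RIPK3 and the effector MLKL, to necroptosis, whereas the other receptors bind TRAF adaptors directly. Either kind of receptor can activate the IKK kinases, which free RELA and REL dimers from IκB proteins in the canonical pathway or lead to processing of the NFKB2 precursor and release of RELB in the non-canonical pathway, the branch used by the lymphotoxin β receptor (LTBR). In the testis, TNF is known as a product of germ cells and macrophages to which Sertoli cells respond through NF-κB. NF-κB activity depends on protein modification and localization, so mRNA levels measure the components and not the activity.

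Promoters are shown for 4 genes chosen by their values in these data. They are *Ltb*, the member with the smallest limma *P*-value, and *Nfkb2*, whose level was the most variable of the members between the cryptorchid libraries. The others are *Bcl3* and *Nfkbie*, the 2 genes of the pathway outside the members that had the largest differences. Each run covers 250 bases before to 50 bases after the annotated start (RefSeq, GRCm38.p6), and capitals mark matches to the 10-base κB consensus (the IUPAC form of the NF-κB site) on either strand. The windows are *Ltb* chr17:35194257-35194556 (plus strand), *Nfkb2* chr19:46304487-46304786 (plus strand), *Bcl3* chr7:19822706-19823005 (minus strand) and *Nfkbie* chr17:45555450-45555749 (plus strand).
Ltb: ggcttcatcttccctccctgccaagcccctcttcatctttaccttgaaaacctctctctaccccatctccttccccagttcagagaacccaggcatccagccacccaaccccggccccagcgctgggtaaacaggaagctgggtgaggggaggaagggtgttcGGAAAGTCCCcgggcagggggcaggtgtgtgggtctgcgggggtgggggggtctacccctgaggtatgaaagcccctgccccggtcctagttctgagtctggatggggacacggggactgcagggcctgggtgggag
Nfkb2: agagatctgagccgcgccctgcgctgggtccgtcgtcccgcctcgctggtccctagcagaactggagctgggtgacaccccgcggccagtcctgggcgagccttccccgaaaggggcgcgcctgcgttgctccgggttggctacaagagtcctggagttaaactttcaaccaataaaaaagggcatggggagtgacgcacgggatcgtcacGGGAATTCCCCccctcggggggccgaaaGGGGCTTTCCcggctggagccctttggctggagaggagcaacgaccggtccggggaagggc
Bcl3: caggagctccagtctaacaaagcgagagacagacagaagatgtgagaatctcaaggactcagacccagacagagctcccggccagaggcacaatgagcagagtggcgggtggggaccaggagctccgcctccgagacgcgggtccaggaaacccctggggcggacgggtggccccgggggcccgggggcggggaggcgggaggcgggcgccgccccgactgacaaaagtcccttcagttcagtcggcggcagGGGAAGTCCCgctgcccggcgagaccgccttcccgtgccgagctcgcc
Nfkbie: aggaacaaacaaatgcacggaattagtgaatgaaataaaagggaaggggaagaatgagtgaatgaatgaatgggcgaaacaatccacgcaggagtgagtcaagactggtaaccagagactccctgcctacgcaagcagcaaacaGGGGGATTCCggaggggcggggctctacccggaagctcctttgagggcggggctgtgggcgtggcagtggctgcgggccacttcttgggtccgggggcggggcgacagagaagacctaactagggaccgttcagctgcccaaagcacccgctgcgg
*Ltb*, *Bcl3* and *Nfkbie* each held 1 match. *Nfkb2* held 3 matches, of which a pair overlaps in the first capital run. Among the members, 44 of 57 had a promoter in the RefSeq table and 5 of these (11.4%) held a match, namely *Ltb*, *Nfkb2*, *Rel*, *Tnfrsf8* and *Traf3*. The share over all 27025 promoters of this length, 1 per gene, was 4.35%. The start nearest the annotated 5' end was taken for the members and the first listed start for all genes, so the shares are not strictly alike. The median GC content was also higher in the members (57.8%) than over all promoters (52.7%). A match describes the letters only, and neither *Nfkb2* nor *Rel*, *Tnfrsf8* or *Traf3* passed the test for a difference between the groups. The other called genes of the pathway, *Cflar*, *Rnf31* and *Mlkl*, held no match. *Tnip1* (3 matches) and *Tnfaip3* (2 matches), inhibitors of the pathway, did not pass.

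Reads on genes numbered 4511730 to 24345368 in the control libraries (median 7603202) and 3306771 to 20027902 in the cryptorchid libraries (median 4611830). A gene without reads holds the lowest value of its library, which stands for 0.9 reads, and this minimum depends on depth. All values were therefore raised to a common floor of -1.92 log2 RPM (0.264 RPM, where RPM is the read number scaled to the library total), the highest of the 12 library minima, which equals 0.9 to 7.58 reads. The libraries formed a pair of technical sets seen in the values and not named in the labels. Replicates 1 to 3 of both groups (set 1, 3 control and 3 cryptorchid libraries) had 53.2% to 60.8% even read numbers among low genes, against 48.2% to 50.5% in replicates 4 and above (set 2, 2 control and 4 cryptorchid libraries). Differences within each set are given beside the pooled ones. The 11 markers of undifferentiated spermatogonia had a summed level of 1038 to 1552 RPM in control and 1196 to 1935 RPM in cryptorchid libraries. *Gfra1*, *Ret* and *Zbtb16* were high in all libraries, while *Id4* (8 reads in control replicate 3) and *Pax7* (9 reads in control replicate 5) were low in some. *Gfra1* itself did not pass the test (log2 difference 0.52). RNA of later germ cells was also present at a high level. The 9 markers of spermatocytes and spermatids summed to 753 to 2781 RPM in control and 312 to 2066 RPM in cryptorchid libraries. Of these, *Prm1* and *Prm2*, the protamine genes of spermatids, were called lower in cryptorchid libraries, by 2.40 and 3.73 on the log2 scale. Over the 9 markers, 6 differences were below 0 and 3 above, those of *Sycp1* (0.26), *Sycp3* (0.64) and *Spo11* (1.03), which did not pass. Of the 4 markers of differentiating spermatogonia, *Stra8* was called higher (1.09, exact permutation *P* = 0.0177), with all 7 cryptorchid libraries above the control mean. *Kit*, *Dmrtb1* and *Prss50* did not pass (0.45, -0.76 and -0.51), and the median difference of the 4 was -0.03.

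Of the 57 members, 49 were above the limit for testing (log2 of the mean RPM above -1). At a 2-fold difference with an unadjusted limma *P*-value under 0.05, 3 members were higher in cryptorchid spermatogonia, *Ltb*, *Tnfrsf26* and *Tnfrsf11b*, where 3.18% of all 16932 genes tested were called higher. *Tnfrsf11b* passed the limit for testing only through the cryptorchid libraries and so had to differ in this direction, and its call is given as a description. No member was lower, against 2.45% of all genes, and at an unadjusted *P*-value under 0.05 without a fold limit the same 3 members were the only ones, against 9.16% of all genes in either direction. No member had a Benjamini-Hochberg adjusted *P*-value under 0.05 (2 of all genes did, 0.0118%), and the lowest of a member was 0.272. No member had groups without overlap, against 0.555% of all genes with every cryptorchid library above every control library and 0.283% the other way. The log2 difference was above 0 for 32 of the 49 members (65.3%) and for 56.0% of all genes, and its median was 0.23 over the members and 0.09 over all genes. Like *Tnfrsf11b*, *Cd40lg*, *Tnfsf10*, *Tnfsf8*, *Lta* and *Tnfrsf13c* passed the limit for testing only through the cryptorchid libraries, and *Fasl* only through the control libraries. The limit fixed the direction of their mean RPM, so the share and the median are a description. With the exact permutation test in place of limma, 2 members were higher at the same limits (*Ltb* and *Cd70*) against 2.94% of all genes, and no member was lower against 1.87%. Calls below are those of limma, and *P*-values of single genes are those of the exact two-sided permutation test, before adjustment unless stated.

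**Figure D1:**
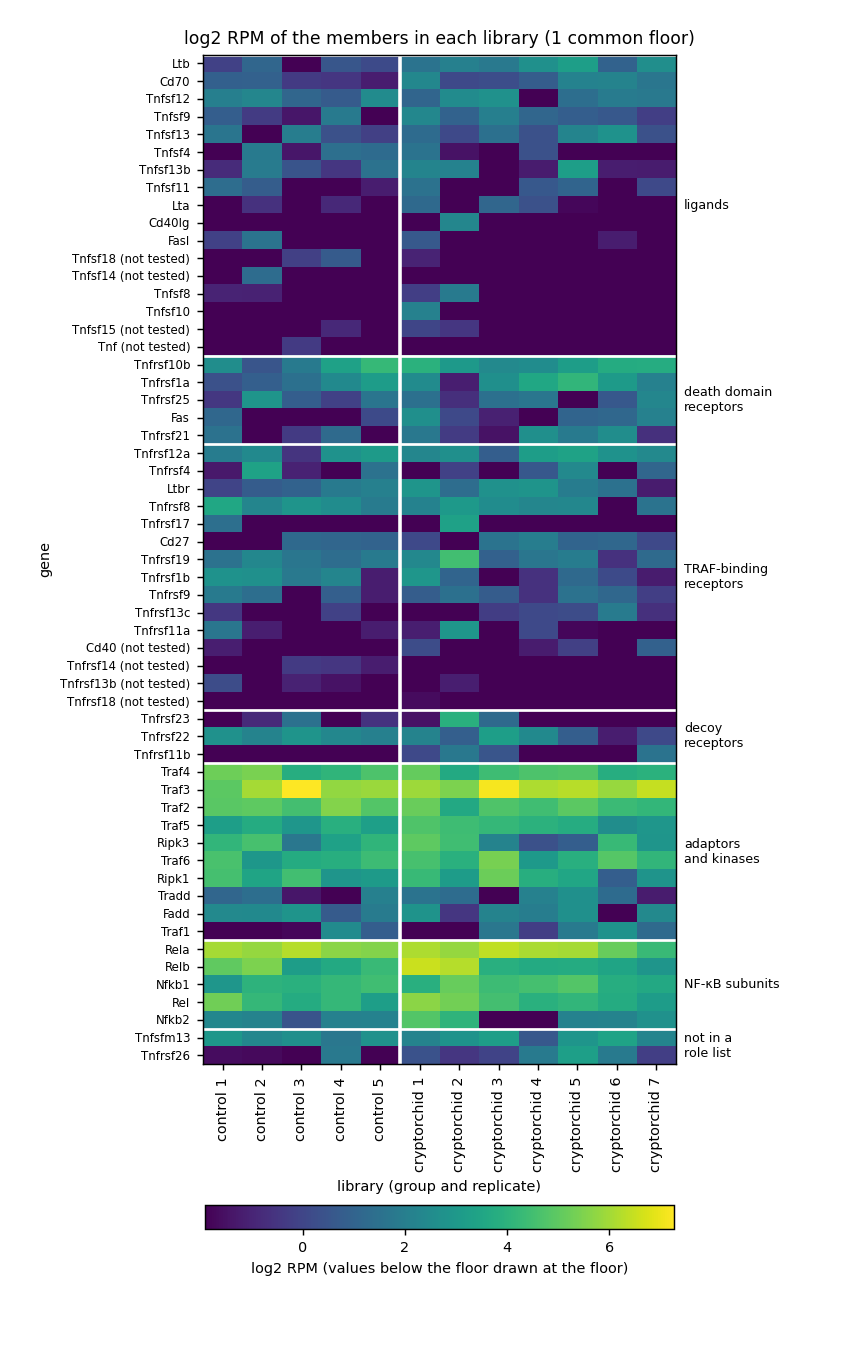
Log2 RPM (colour) of the 57 members (rows, grouped by role and ordered by level per length) in the 5 control and 7 cryptorchid libraries (columns), with values under the common floor of -1.92 drawn at the floor. Most adaptors, kinases and NF-κB subunits are well above the floor in all libraries, while most ligands lie at or near the floor in many libraries of both groups.

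Per length, over all libraries, the signaling components stood above the ligands. The median level was 2.20 log2 RPKM (RPM divided by the exon length in kilobases) for the NF-κB subunits and 2.20 for the adaptors and kinases, 0.38 for the death domain receptors, -0.34 for the TRAF-binding receptors and -1.19 for the ligands. *Rela* was the highest member (4.42 log2 RPKM), followed by *Relb* (3.70), *Traf4* (3.53), *Traf3* (3.40) and *Traf2* (3.15). In control libraries *Rela* stood at 4.43 ± 0.27, *Traf4* at 3.59 ± 0.71, *Traf2* at 3.35 ± 0.39, *Relb* at 3.18 ± 0.93 and *Traf3* at 3.14 ± 0.84 log2 RPKM (SD, n = 5), and the latter 4, in another order than over all libraries, lay within each other's spread. *Ltb* was 14th by level over all libraries (1.51). In control libraries it stood at -0.29 log2 RPKM, below the ligands *Tnfsf12* (1.22) and *Cd70* (0.22). Every member had reads in some library, and 23 members had reads in all 12 libraries.

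Among the 17 ligands, 13 were tested and 1 was called, *Ltb*. *Ltb* encodes lymphotoxin β, the membrane anchor of the lymphotoxin heterotrimer that binds LTBR, and lies on chromosome 17 from 35194439 to 35196320 (GRCm38, plus strand), next to *Tnf* and *Lta*. Its level in the control libraries was -0.15, 1.11, -1.92, 0.54 and 0.15 log2 RPM (replicates 1 to 5), from 0 to 62 reads. In the cryptorchid libraries the lowest value was 0.98, the median 2.07 and the highest 3.23 log2 RPM, from 9 to 66 reads. All 7 cryptorchid libraries were above the control mean and 6 were above the highest control library, and the groups overlapped only by control replicate 2 and cryptorchid replicate 6. The log2 difference was 2.19 ± 0.66 (SE), with a limma *P*-value of 0.00374, an adjusted *P*-value of 0.272 and an exact permutation *P*-value of 0.00253 before adjustment and 0.259 after it. It was 2.13 in set 1 and 2.04 in set 2. With each library left out in turn it stayed between 1.73 and 2.48 and kept its call.

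The neighbours of *Ltb* on chromosome 17 were near the floor. *Tnf*, the founding ligand of the family, had 8 reads in control replicate 3 and no reads in the other control libraries, and 3 reads in 1 cryptorchid library, and was not tested. *Lta*, which encodes the soluble partner of lymphotoxin β, had 22 reads in 2 control libraries and 77 reads in 4 cryptorchid libraries. It stood at -1.45 ± 0.66 (SD, n = 5) against -0.69 ± 1.51 log2 RPM (SD, n = 7) after surgery, a difference of 0.76 (exact permutation *P* = 0.299). The 3 genes lie within 10.91 kb, and the other two were too low to be compared with *Ltb*.

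Another cluster on chromosome 17 holds *Tnfsf9*, *Cd70* and *Tnfsf14*, which encode the ligands of 4-1BB, CD27 and HVEM/LTBR. *Cd70*, described here after its values were seen, was at 0.89, 0.93, -0.35, -0.46 and -1.17 log2 RPM in the control libraries and at 0.10 to 2.34 (median 1.68) in the cryptorchid libraries. Its difference of 1.39 ± 0.67 (SE) had a limma *P*-value of 0.0531 and an exact permutation *P*-value of 0.0366 (0.497 adjusted), and it was 0.41 in set 1 and 2.52 in set 2. *Tnfsf9* differed by 1.28 (exact permutation *P* = 0.0985). *Tnfsf14* had 74 reads in 2 control libraries and none in the cryptorchid libraries, and was too low to be tested.

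The ligand with the most reads was *Tnfsf12*, which encodes TWEAK, with 299 reads in control and 207 in cryptorchid libraries. It overlaps the readthrough gene *Tnfsfm13*, which also overlaps *Tnfsf13*, so reads of *Tnfsf12* and *Tnfsf13* may be split with *Tnfsfm13*. *Tnfsf12* stood at 1.74 ± 0.79 (SD, n = 5) and 1.35 ± 1.55 log2 RPM (SD, n = 7), a difference of -0.39 (exact permutation *P* = 0.729). *Tnfsf13* differed by 0.85 and *Tnfsfm13* by 0.00 on the log2 scale. *Tnfsf4*, the OX40 ligand, had the lowest difference of the ligands (-1.29, exact permutation *P* = 0.165), with -0.13 in set 1 and -2.72 in set 2. *Cd40lg*, which encodes the ligand of CD40, had 55 reads, all of them in cryptorchid replicate 2. *Tnfsf10*, the gene of TRAIL, had 5 reads in control and 100 in cryptorchid libraries, of which 97 fell in 1 library. *Fasl* had 109 and 40 reads (log2 difference -0.58). *Tnfsf8*, *Tnfsf11* and *Tnfsf13b* had differences of 0.42, 0.21 and -0.23. *Tnfsf15* and *Tnfsf18* were not tested.

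**Figure D2:**
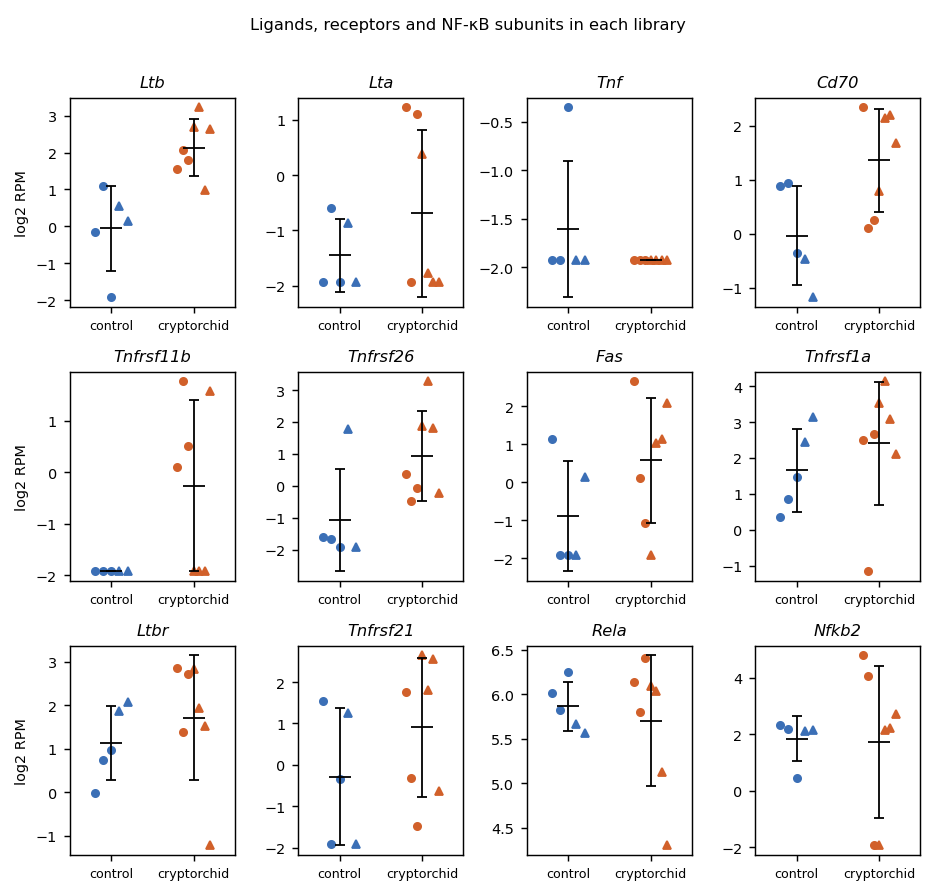
Log2 RPM of 12 members in each library (circles, set 1; triangles, set 2), with the mean and SD of the 5 control and 7 cryptorchid libraries in black. *Ltb* was higher in cryptorchid libraries with an overlap of 1 library on each side, *Tnfrsf11b* had reads in 4 cryptorchid libraries and in no control library, and *Tnf* was at the floor in all libraries but control replicate 3.

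All 5 receptors with a death domain were tested and none passed. *Tnfrsf1a*, which encodes TNF receptor 1, was at 0.35, 0.85, 1.46, 2.45 and 3.15 log2 RPM in the control libraries. In the cryptorchid libraries it ranged from -1.16 to 4.14 with a median of 2.66, and the lowest value came from replicate 2 alone, the others lying between 2.10 and 4.14. The difference was 0.76 ± 0.81 (SE), with an exact permutation *P*-value of 0.409. *Tnfrsf1a* passed the threshold when cryptorchid replicate 2 was left out (1.36). *Fas*, which encodes the receptor of FASL, was at the floor in 3 control libraries and at 1.15 and 0.15 log2 RPM in the other two. In the cryptorchid libraries it ranged from -1.92 to 2.66 (median 1.04), and 2 of these were above the highest control library. The difference was 1.47 ± 0.87 (SE, exact permutation *P* = 0.148), with 1.46 in set 1 and 1.47 in set 2. *Fas* passed without control replicate 1 (1.98), without cryptorchid replicate 4 (1.89) and with voom on the recovered reads (2.59).

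*Tnfrsf21*, the gene of death receptor 6, was at -0.28 ± 1.66 (SD, n = 5) in the control and 0.91 ± 1.68 log2 RPM (SD, n = 7) in the cryptorchid group, with 4 cryptorchid libraries above every control library and 3 low ones, and did not pass (1.19, exact permutation *P* = 0.241). *Tnfrsf10b*, the TRAIL receptor gene and the member of this group with the most reads, stood at 2.50 ± 1.42 (SD, n = 5) and 3.23 ± 0.60 log2 RPM (SD, n = 7). Its difference of 0.73 (exact permutation *P* = 0.26) was 1.49 in set 1 and -0.48 in set 2, and it passed with voom on the recovered reads (1.30). *Tnfrsf25*, death receptor 3, differed by -0.25. The median difference over the 5 receptors was 0.76, with 4 of 5 above 0, and their 95% intervals all reached beyond 1 in log2.

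Of the 15 receptors that bind TRAF adaptors without a death domain, 11 were tested and none passed. *Ltbr*, the receptor of lymphotoxin β, was at -0.02, 0.74, 0.97, 1.86 and 2.07 log2 RPM in the control libraries. In the cryptorchid libraries 6 values lay between 1.38 and 2.86 and replicate 7 at -1.22. The difference was 0.59 ± 0.74 (SE, exact permutation *P* = 0.443), 1.75 in set 1 and -0.71 in set 2. *Tnfrsf1b*, which encodes TNF receptor 2, had the lowest difference of all members. Its control values were 2.78, 2.70, 1.78, 2.24 and -1.17 log2 RPM and its cryptorchid values -1.92 to 2.92 (median 0.14), with 1 cryptorchid library above the highest control library. The difference was -1.44 ± 0.89 (SE, exact permutation *P* = 0.159), and it passed without control replicate 5 (-2.15) or without cryptorchid replicate 1 (-1.89).

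*Tnfrsf8*, the CD30 gene, had the most reads of these receptors and stood at 2.62 ± 0.62 (SD, n = 5) in the control and 1.72 ± 1.66 log2 RPM (SD, n = 7) in the cryptorchid group, a difference of -0.90 (exact permutation *P* = 0.316). No cryptorchid library was above the highest control library. *Tnfrsf12a*, the TWEAK receptor, had the highest level per length of the group (2.45 log2 RPKM) and differed by 0.57. *Tnfrsf13c*, which encodes the BAFF receptor, differed by 0.91, *Cd27* by 0.67 and *Tnfrsf9* (4-1BB) by 0.49. *Tnfrsf4* (OX40) differed by -0.39 and had 300 of its 328 control reads in 1 library. *Tnfrsf17* (BCMA), *Tnfrsf11a* (RANK) and *Tnfrsf19* (TROY) had differences of 0.09, 0.08 and -0.03. *Tnfrsf14* had 14 reads in 3 control libraries and none in cryptorchid libraries, and with *Cd40*, *Tnfrsf13b* and *Tnfrsf18* was not tested. Over the 11 receptors, 7 differences were above 0 and the median was 0.09, close to the 0.09 of all genes.

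The decoy receptors lack a working death domain or are soluble. *Tnfrsf11b* encodes osteoprotegerin, a soluble decoy of RANKL and TRAIL. It had no reads in any of the 5 control libraries. In the cryptorchid libraries it had 24, 38, 12, 0, 0, 0 and 14 reads (replicates 1 to 7), or 0.11, 1.77, 0.51, 3 values at the floor and 1.58 log2 RPM. Its mean RPM was at least 3.67-fold higher in cryptorchid libraries, taking 3 reads in each control library as the floor. *Tnfrsf11b* passed the limit for testing only through the group in which it was high, so the fitted values describe it and are no test. The fitted difference was 1.67 ± 0.78 (SE), with a limma *P*-value of 0.0454, an adjusted *P*-value of 0.532 and an exact permutation *P*-value of 0.0808. The call was lost when any of the control libraries was left out, and without cryptorchid replicate 1, 2, 3 or 7, and the set differences were 2.72 and 0.88. *Tnfrsf22*, a decoy of TRAIL, stood at 2.44 ± 0.33 (SD, n = 5) in the control and 1.20 ± 1.52 log2 RPM (SD, n = 7) in the cryptorchid group, with 6 of 7 cryptorchid libraries below the control mean. It did not pass (-1.23, exact permutation *P* = 0.117), except without cryptorchid replicate 3 (-1.57). *Tnfrsf23* differed by 0.18. *Tnfrsf22* shares 27.4% of its 50-base words with *Tnfrsf23*, so reads can be split between these genes.

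*Tnfrsf26* lies on chromosome 7 from 143607659 to 143628722, next to *Tnfrsf22* and *Tnfrsf23*, and shares no 50-base word with another gene. It is a receptor of the family for which no role list was set. In the control libraries it was at -1.61, -1.68, -1.92, 1.79 and -1.92 log2 RPM, so that only replicate 4 stood above the others, with 19 reads. In the cryptorchid libraries it ranged from -0.48 to 3.27 (median 0.38), and all 7 were above 4 of the 5 control libraries. The difference was 2.01 ± 0.84 (SE), with a limma *P*-value of 0.0283, an adjusted *P*-value of 0.467 and an exact permutation *P*-value of 0.053. It was 1.68 in set 1 and 1.75 in set 2. The call was lost without control replicate 1, 2, 3 or 5 and without cryptorchid replicate 4 or 5.

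**Figure D3:**
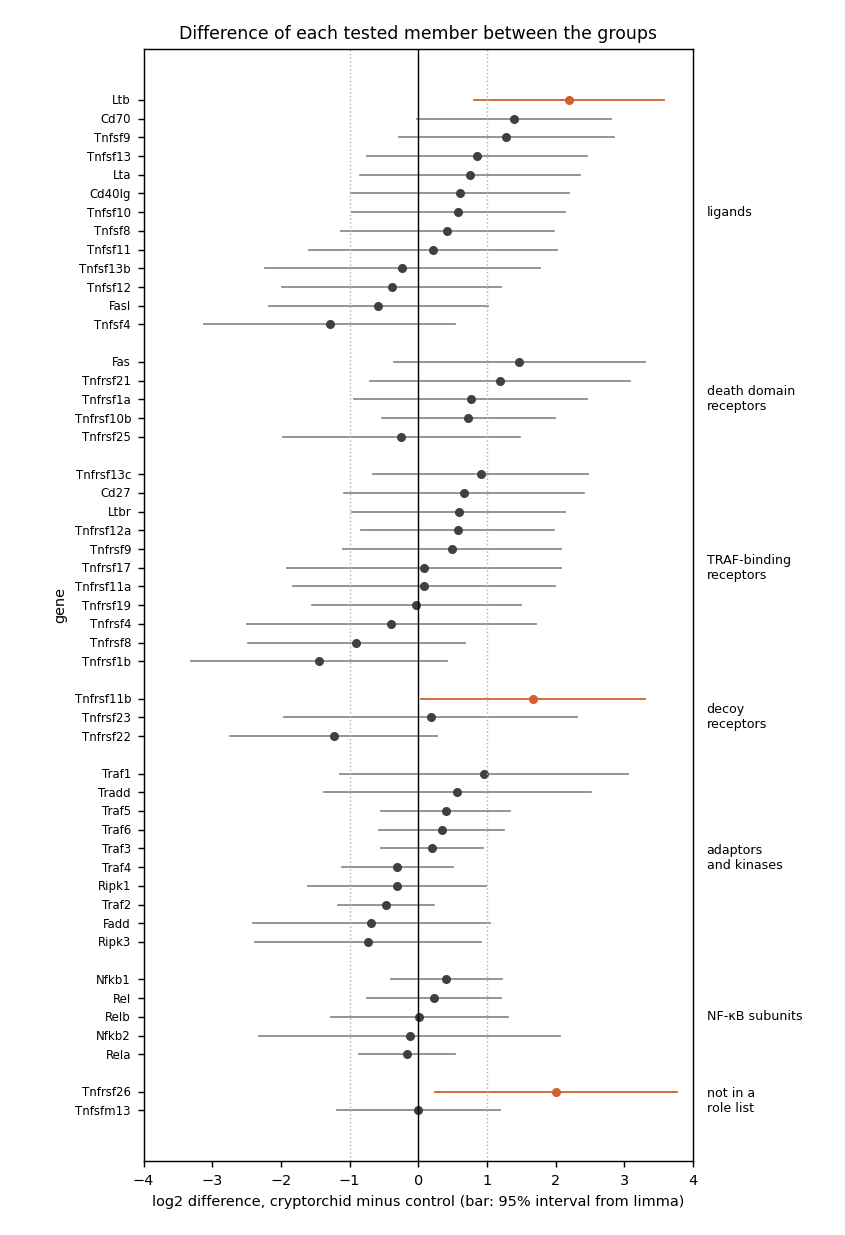
Log2 difference, cryptorchid minus control, of the 49 tested members (points) with the 95% interval from limma (bars), grouped by role, with dotted lines at -1 and 1. The 3 called members are in orange, and only *Rela* and *Traf3* have an interval inside the dotted lines.

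The 10 adaptors and kinases were all tested and none passed, with differences from -0.73 (*Ripk3*) to 0.96 (*Traf1*), 5 of them above 0 and a median of -0.05. *Traf3*, a brake on the non-canonical pathway and the member of this group with the most reads, was at 4.94, 6.02, 7.27, 5.79 and 5.89 log2 RPM in control and at 5.45 to 7.15 (median 6.12) in cryptorchid libraries. The difference was 0.20 with a 95% interval of -0.55 to 0.95, 1 of the 2 members whose interval lay between -1 and 1. *Traf2*, which links TNF receptor 1 to the IKK kinases, had the smallest limma *P*-value of the group and stood at 4.96 ± 0.39 (SD, n = 5) and 4.49 ± 0.52 log2 RPM (SD, n = 7), a difference of -0.47 (exact permutation *P* = 0.122). *Traf1* was at or near the floor in 3 control libraries and 2 cryptorchid libraries and reached 2.50 and 2.77 log2 RPM at most, a difference of 0.96 (exact permutation *P* = 0.394). *Traf4*, *Traf5* and *Traf6* differed by -0.31, 0.40 and 0.34.

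*Tradd*, the adaptor of TNF receptor 1, was at 0.26 ± 1.78 (SD, n = 5) in the control and 0.83 ± 1.73 log2 RPM (SD, n = 7) in the cryptorchid group (0.57, exact permutation *P* = 0.588). *Ripk1*, the kinase at the branch between survival and cell death, was at 4.57, 3.43, 4.48, 2.86 and 3.07 log2 RPM in control and at 0.81 to 5.19 (median 3.51) in cryptorchid libraries. The difference was -0.31 (exact permutation *P* = 0.696), 0.05 in set 1 and -0.22 in set 2. Exons of *Ripk1* overlap *Serpinb6a* on the other strand and the counting strand is not stated, so its reads may include those of *Serpinb6a*. *Fadd*, the adaptor of FAS, differed by -0.68 and *Ripk3*, which phosphorylates MLKL, by -0.73.

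The 5 NF-κB subunits were expressed in nearly all libraries, and none passed, with a median difference of 0.01. *Rela*, the transactivating subunit of the canonical pathway, was at 6.02, 5.82, 6.25, 5.67 and 5.57 log2 RPM in control and at 4.30 to 6.40 (median 6.04) in cryptorchid libraries, 5 of them inside or above the control range and replicates 6 and 7 (5.13 and 4.30) below it. The difference was -0.17 with a 95% interval of -0.87 to 0.54 (exact permutation *P* = 0.693). *Nfkb1*, which encodes the p50 precursor, stood at 3.90 ± 0.59 (SD, n = 5) and 4.31 ± 0.56 log2 RPM (SD, n = 7), a difference of 0.41 with an interval of -0.40 to 1.22. *Rel*, a subunit prominent in lymphocytes, differed by 0.23 with an interval of -0.74 to 1.21.

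In the non-canonical pathway, *Relb* was at 4.32 ± 0.93 (SD, n = 5) and 4.34 ± 1.43 log2 RPM (SD, n = 7), a difference of 0.01 with an interval of -1.28 to 1.30. *Nfkb2* was at 2.34, 2.18, 0.46, 2.13 and 2.15 log2 RPM in control libraries. In cryptorchid libraries it was at the floor in replicates 3 and 4, at 2.14 to 2.73 in replicates 5 to 7, and at 4.79 and 4.06 in replicates 1 and 2. The SD was 0.78 in control and 2.67 in cryptorchid libraries, and the difference was -0.12 (exact permutation *P* = 0.918) with an interval of -2.32 to 2.07. Its mean RPM was 3.95 in control and 8.61 in cryptorchid libraries, opposite in direction to the log2 difference. Its sign was opposite in set 1 (0.65) and set 2 (-0.85). *Relb* was likewise highest in cryptorchid replicates 1 and 2 (6.52 and 6.24), against 2.86 to 3.86 in the other 5. *Nfkb2* exons overlap *Psd* on the other strand, so reads of *Psd* cannot be told apart from its own.

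Of the other genes of the pathway, 46 were listed and 40 were tested, of which 3 were called higher and 2 lower, where the background was 3.18% and 2.45% of all genes. *Bcl3* and *Mlkl*, among these calls, passed the limit for testing only through the group in which they were high, and are given as a description. The median difference over the 40 genes was 0.28. Of the 10 IKK and upstream kinases none passed, with 9 of 10 differences above 0 and a median of 0.22, and *Map3k7*, the TAK1 gene that activates the IKK kinases, had the smallest limma *P*-value (0.50, exact permutation *P* = 0.0518). *Ikbkb*, the IKKβ gene, had the same exact permutation *P*-value and a difference of 0.60. Of the 10 inhibitors, 2 were called higher, *Bcl3* and *Nfkbie*. *Bcl3*, an IκB-like cofactor of p50 and p52 dimers, was at -1.15, 0.24 and 3 values at the floor of -1.92 log2 RPM in control and at -0.75 to 3.36 (median 1.27) in cryptorchid libraries, with 45 and 310 reads. The difference was 2.71 ± 0.74 (SE), 2.14 in set 1 and 3.44 in set 2. It had a limma *P*-value of 0.00173, an adjusted *P*-value of 0.217 and an exact permutation *P*-value of 0.00505. The mean RPM of *Bcl3* was 0.327 in control and 3.60 in cryptorchid libraries. It passed the limit for testing only through the cryptorchid libraries, so these values describe it and are no test. *Nfkbie*, the IκBε gene, was at -0.91, -1.92, -0.35, -1.46 and -0.59 log2 RPM in control and at -0.77 to 2.50 (median 1.51) in cryptorchid libraries, a difference of 2.02 ± 0.74 (SE, exact permutation *P* = 0.0177, limma adjusted *P* = 0.403). The other inhibitors did not pass, among them *Nfkbia* (0.55), the IκBα gene, and *Tnfaip3* (1.38), the A20 deubiquitinase gene.

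The linear ubiquitin ligase, which extends ubiquitin chains on RIPK1 and the IKK regulator NEMO, is built from the products of *Rnf31*, *Rbck1* and *Sharpin*. *Rnf31*, the catalytic subunit, was called lower. It was at 5.11, 5.80, 4.70, 5.45 and 5.54 log2 RPM in control and at 3.25 to 5.07 (median 4.27) in cryptorchid libraries, and only cryptorchid replicate 3 lay inside the control range. The difference was -1.18 ± 0.35 (SE), with a limma *P*-value of 0.00326, an adjusted *P*-value of 0.252 and an exact permutation *P*-value of 0.00631, and it was -0.65 in set 1 and -1.66 in set 2. *Rbck1*, described after its values were seen, was just under the fold limit with a difference of -0.99 ± 0.31 (SE, exact permutation *P* = 0.0139), -0.73 in set 1 and -1.19 in set 2. *Sharpin* differed by -0.49 (exact permutation *P* = 0.221). Of the other 3 ligases, *Birc2*, *Birc3* and *Xiap*, none passed, and all had differences above 0 (0.51, 0.85 and 0.74).

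Among the 6 death effectors, *Cflar* was called higher and *Mlkl* lower. *Cflar* encodes cFLIP, a catalytically inactive caspase-8 homologue that limits death receptor signaling, and stood at 2.73 ± 1.07 (SD, n = 5) in the control and 3.90 ± 0.31 log2 RPM (SD, n = 7) in the cryptorchid group, a difference of 1.17 ± 0.48 (SE, exact permutation *P* = 0.0152, limma adjusted *P* = 0.453). The call was lost without control replicate 2 (0.84) or 4 (0.97). *Mlkl*, the pore-forming effector of necroptosis, had 148 reads in control and 22 in cryptorchid libraries. The difference was -1.59 ± 0.67 (SE, exact permutation *P* = 0.0164, limma adjusted *P* = 0.470), and the call was lost without control replicate 1, 2 or 5. The mean RPM of *Mlkl* was 1.48 in control and 0.320 in cryptorchid libraries. It passed the limit for testing only through the control libraries, so these values describe it and are no test. *Casp8*, the initiator caspase of death receptors, and *Bid*, its substrate, had differences of 0.20 and -0.23 and did not pass. Of the 14 target genes, 8 were tested and none passed. *Vcam1* had the smallest limma *P*-value (exact permutation *P* = 0.116), with no reads in control and 86 reads in cryptorchid libraries. *Vcam1* thus passed the limit for testing only through the cryptorchid libraries, and its values are no test. *Irf1* and *Sod2*, the targets with the most reads, differed by -0.27 and -0.20.

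**Figure D4:**
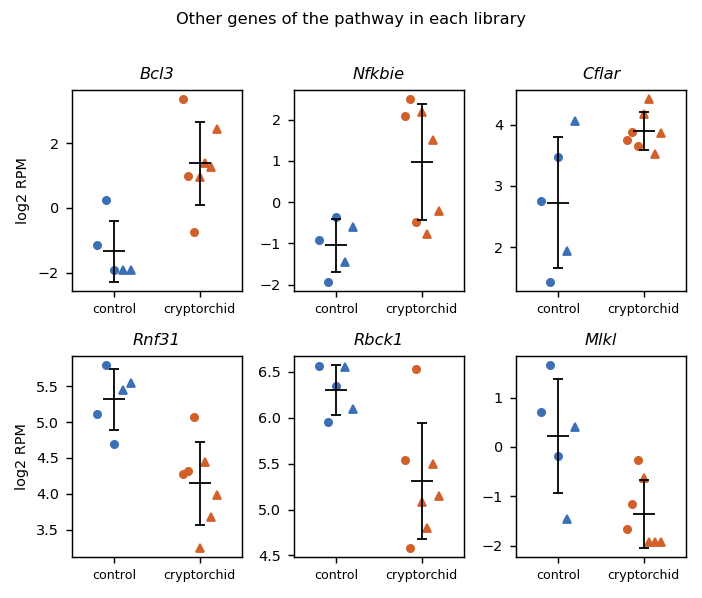
Log2 RPM of 6 other genes of the pathway in each library (circles, set 1; triangles, set 2), with the mean and SD of each group in black. *Bcl3*, *Nfkbie* and *Cflar* lie higher and *Rnf31*, *Rbck1* and *Mlkl* lower in cryptorchid libraries, each with some overlap of the groups.

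The differences of the members were compared between the technical sets. The sign was the same in both sets for 25 of the 49 tested members (51.0%), opposite for 20 and 0 in a set for 4, whereas 62.9% of all genes had the same sign. The median difference of the members was 0.45 in set 1 (0.05 over all genes) and 0 in set 2 (0 over all genes). *Ltb*, *Tnfrsf26* and *Fas* had differences above 1 in both sets. *Tnfsf9*, *Tnfrsf11b* and *Ltbr* were larger in set 1, *Cd70* and *Tnfrsf21* (0.23 and 1.94) were larger in set 2. The difference between the sets was not tested. With 3 against 3 and 2 against 4 libraries, the values within a set rest on few libraries.

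**Figure D5:**
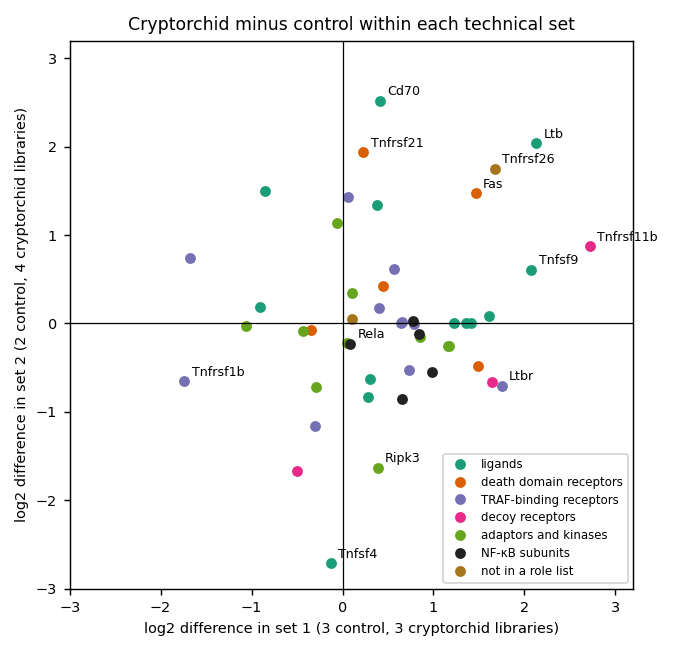
Log2 difference, cryptorchid minus control, of the 49 tested members in set 1 (horizontal, 3 control and 3 cryptorchid libraries) and set 2 (vertical, 2 control and 4 cryptorchid libraries), coloured by role. *Ltb*, *Tnfrsf26* and *Fas* lie in the upper right with differences above 1 in both sets, and 20 members have opposite signs.

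Several members, among them *Ltb*, *Lta*, *Cd27*, *Cd70* and *Cd40lg*, are also expressed by lymphocytes, and in bulk samples fewer cells of a type and less RNA per cell cannot be told apart. Of the 9 markers of T and NK cells, 4 were tested and 2 were higher in cryptorchid libraries, *Cd2* (2.03, exact permutation *P* = 0.00253) and *Lck* (1.43, exact permutation *P* = 0.0303). Their summed level was 15.1 to 30.8 RPM in control and 20.8 to 88.9 RPM in cryptorchid libraries, to which *Lck* contributed most of the reads. The defining T cell genes *Cd3e* and *Cd3d* had 43 and 202 reads in control and 20 and 110 in cryptorchid libraries, with differences of -0.25 and -0.98. *Cd3g* went the other way with 6 and 42 reads, as did *Il7r* with 13 and 33 reads, and neither was tested. *Nkg7* had no reads in any library and *Cd8a* none in the cryptorchid libraries. Of the 5 pan-leukocyte markers none passed at 2-fold, with 2 differences above 0, 3 below and a median of -0.26. At an unadjusted limma *P*-value under 0.05 without a fold limit, 1 of them was lower. Their sum was 24.6 to 82.9 RPM in control (median 60.1) and 20.2 to 58.6 RPM in cryptorchid libraries (median 32.3). *Ptprc* (CD45) went the other way from the median of the sum, with 37 and 162 reads. Of 6 macrophage markers tested *Mrc1* was higher (2.02, exact permutation *P* = 0.00253), with a sum of 3.62 to 23.8 RPM in control and 11.4 to 36.6 RPM in cryptorchid libraries. Neither of the 2 B cell markers tested passed (sum 0.221 to 3.82 and 0.857 to 16.6 RPM). Of 4 endothelial markers tested *Cdh5* was higher (2.01, exact permutation *P* = 0.00884). None of the 7 Sertoli cell markers passed, with a sum of 43.8 to 261 RPM in control and 40.0 to 242 RPM in cryptorchid libraries. The 3 Leydig cell markers tested did not pass either (sum of the list 8.64 to 15.5 and 6.18 to 47.8 RPM). The same held for the 3 markers of peritubular myoid cells tested (0.909 to 15.2 and 0.476 to 12.1 RPM). The part of any of these cells in the differences of *Ltb*, *Tnfrsf11b* and *Tnfrsf26* was not tested.

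*Lta*, *Ltb*, *Ltbr*, *Tnfrsf21*, *Traf1* and *Nfkb2* stand on gene lists for apoptosis or development in the study, and *Tnf*, *Fas*, *Tnfrsf1a*, *Tradd* and *Ripk1* were plotted there for apoptosis. Of the first 6 genes *Ltb* alone was called, with 5 of 6 differences above 0. The exception was *Nfkb2*, whose mean RPM was nevertheless higher in cryptorchid libraries. Of the other 5 genes 4 were tested and none was called, with 3 of 4 differences above 0. The lists of the study were drawn from genes with a lost peak of the histone mark H3K27me3 near the start and higher mRNA. The fold limit for that mRNA was lower than 2-fold. The plotted genes were compared there by 1-sided Wilcoxon tests. The calls here use other limits and do not repeat those comparisons. The listed and plotted genes were chosen on the same libraries, so their directions are not independent evidence. Among the 49 tested members, 47 had a 95% interval that reached beyond -1 or 1 in log2, against 2 with an interval inside these limits, as was that of 25.3% of all genes. For most members the interval thus includes differences of 2-fold or more.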

How the data were processed

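Smart-seq2 RNA libraries of sorted spermatogonia (12 in all, 5 control and 7 cryptorchid) were assigned to groups from the sample labels. Per the labels and the study's methods, the authors checked the reads with FastQC 0.11.8, trimmed them with Trim Galore 0.6.6, mapped them to mm10 (GRCm38) with HISAT2 2.1.0, used SeqMonk to count reads on protein-coding genes, and deposited log2 RPM values, that is log2 read numbers scaled to the library total. Whether counting used strand is not given in the sources used here. Replicates were not pooled.

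Read numbers were recovered from the steps between low values, taking the minimum of a library as 0.9 reads. All recovered values under 1000 reads (100%) were whole within a tolerance of 0.01 in each library. Read numbers and floors cover counting error only, since PCR reads are not independent molecules. The spread between pairs of libraries within a group (31 pairs) was 12.8 to 253 times that of sampling, so each counted as 1 sample.

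After the common floor, limma 3.58.1 in R 4.3.3 (lmFit, eBayes with trend) was fitted over 16932 genes whose mean RPM exceeded -1 on the log2 scale, without covariates, and *P*-values were adjusted by the Benjamini-Hochberg method over all of them. No further pseudocount was used, so differences are on the floored log2 scale, which understates those of genes near the floor. A gene was called at 2-fold and an unadjusted *P*-value under 0.05. Beside it, an exact two-sided permutation test of the difference in means was run over the 792 splits into 5 and 7 libraries (smallest *P* = 0.00126, and 0.214 after adjustment). Levels between genes were compared per exon length of GENCODE vM21. On simulated data of the same 16932 genes, the fit called 35.3% of genes changed by a log2 fold of 1 in the right direction, 78.8% at 2 and 86.4% at 3. Of the unchanged genes 3.20% were called in either direction, whereas the shares of called genes in the results are given per direction.

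The members, the role, pathway and marker lists, the tests and the technical sets were chosen with earlier results of these data known. Full statistics are given for members that the study lists or plots, called members, the NF-κB subunits, the member with the most reads and that with the smallest *P*-value in each role group, and called pathway genes or those with the smallest *P*-value of a list. Other members appear with their values only. Some genes of the pathway lists are not reported here by name. Alternatives were the deposited minima, pseudocounts, other filters, median centring, quantile normalization, array weights, voom on recovered reads, a term for the set, each set alone, a replicate block, the exact test and leaving out each library.

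Analyses were run with Python 3.11.15, numpy 2.4.6, pandas 2.3.3 and matplotlib 3.10.9.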

Additional observations from a re-analysis of the deposited data

Results flagged for a closer look

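In 46 groups of libraries (24 named members, each in control and cryptorchid libraries where the values were not all at the floor), the highest or lowest library was tested for a gap to its nearest neighbour, and 8 groups had a library that stood apart. Chance alone flags about 1 in 20 groups whose values are not tied. A group with all libraries but 1 at the floor, as for *Tnf* in control, is flagged in any case, so this rate does not hold for values tied at the floor. In the control group, *Nfkb2* was at 0.456 log2 RPM in replicate 3 (14 reads), where the others lay between 2.13 and 2.34. *Tnf* was at -0.352 in control replicate 3 (8 reads), with the other 4 at the floor of -1.92. *Tnfrsf1b* was at -1.17 in control replicate 5 (2 reads), below the 1.78 to 2.78 of the others. *Tnfrsf26* was at 1.79 in control replicate 4 (19 reads), above the -1.92 to -1.61 of the others.

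In the cryptorchid group, *Ltbr* was at -1.22 log2 RPM in replicate 7 (2 reads), against 1.38 to 2.86 in the others. *Tnfrsf1a* was at -1.16 in replicate 2 (5 reads), against 2.10 to 4.14. *Tnfrsf8* was at -1.92 in replicate 6 (1 read), against 1.58 to 3.04, and *Tnfsf12* was at -1.92 in replicate 4 (0 reads), against 1.08 to 2.71. No library stood apart in more than 2 of these genes.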

How the results depend on the processing

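The count of 3 members called higher became 1 with log2(RPM + 1), 0 with a filter at log2 of the mean RPM above 2 (20 members tested, *Ltb* not among them) and 5 with voom on recovered reads, and lay between 1 and 4 with a library left out. It was 1 without control replicate 3 or 5, where *Ltb* was the member called. The count of 0 members called lower became 1 with array weights (*Ripk3*) and 1 in set 2 alone (*Tnfsf4*), and lay between 0 and 2 with a library left out (*Tnfrsf1b* without control replicate 5, *Tnfsf4* and *Tnfrsf1b* without cryptorchid replicate 1 and *Tnfrsf22* without cryptorchid replicate 3). The 5 pathway genes called became 2 with the filter at 2 and 1 in set 1 alone. The number of genes with an adjusted *P*-value under 0.05 was 2, and became 400 with array weights, 55 with a term for the set and 1033 with the replicate block. The cause of these shifts was not tested, apart from the fewer genes or libraries that the filter and the sets leave.

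*Ltb* kept its call in every alternative that could test it except set 1 alone (2.13). The sign of some named members that did not pass changed. In set 1 alone *Nfkb2* was 0.65, *Rela* 0.0829, *Ripk1* 0.0520, *Tnfsf12* 0.28 and *Tradd* -0.0613. In set 2 alone *Ltbr* was -0.71, *Nfkb1* -0.12, *Relb* -0.55, *Tnfrsf10b* -0.48 and *Traf1* -0.26. *Nfkb2* was 0.27 with log2(RPM + 1) and 0.0663 with voom. *Relb* was -0.0551 with median centring, -0.0455 with quantile normalization and -0.36 with array weights. With a library left out, *Nfkb2* ranged from -0.63 to 0.48, *Rela* from -0.28 to 0.0682, *Relb* from -0.35 to 0.29, *Ripk1* from -0.61 to 0.12, *Tnfsf12* from -0.65 to 0.16 and *Traf3* from -0.0621 to 0.52. Of 765 values of named genes under alternatives, 678 kept their direction and their side of the threshold.

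Replicate numbers are shared between the groups, but the labels do not say that they mark a mouse or a day. Same-numbered libraries correlated at 0.0372 to 0.474 in their deviations from the group means, and 4 of 5 control libraries correlated best with their own number. With the replicate number as a block (replicates 1 to 5 of both groups), 4 of the 49 members were called higher (*Ltb*, *Tnfrsf26*, *Tnfrsf11b* and *Tnfsf9*), against 756 of all 16932 genes. The call of *Tnfrsf11b* is again a description only. No member was called lower, against 908 of all genes. *Ltb* alone of the members had a limma adjusted *P*-value under 0.05 (0.0488), against 1033 of all genes. In this fit *Rela* was 0.23 and *Ripk1* 0.32. The ligands had a median of 149 reads over all 12 libraries.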

Other observations

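*Nfkbia*, *Tnfaip3* and *Relb*, chosen after their values were seen, were highest in replicates 1 and 2 of both groups. The pattern was not tested. *Nfkb2*, *Icam1*, *Cxcl1* and *Irf1* also showed it, and *Traf1*, *Nfkbie*, *Birc3* and *Sod2* did not. In the control group the margin was slight for *Nfkb2* (2.18 in replicate 2 against 2.15 in replicate 5) and for *Irf1* (7.50 in replicate 2 against 7.41 in replicate 4). *Nfkbia* was at 5.09 and 6.12 log2 RPM in control replicates 1 and 2 against 2.43 to 3.71 in the other 3, and at 7.19 and 6.96 in cryptorchid replicates 1 and 2 against 2.79 to 4.60 in the other 5. *Tnfaip3* was at 2.92 and 0.51 in control replicates 1 and 2 and at the floor in the other 3, and at 5.39 and 3.22 in cryptorchid replicates 1 and 2 against -1.92 to 2.04 in the other 5. *Relb* was at 5.02 and 5.45 in control replicates 1 and 2 against 3.19 to 4.32 in the other 3.

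The member RPM summed over all 57 genes was 354 to 426 in the control libraries and 297 to 618 in the cryptorchid libraries, with the highest sum in cryptorchid replicate 1.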
